A study of Mus musculus with 5 samples.

Results

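IgA plasma cells of mouse bone marrow were selected on their heavy-chain constant gene counts, as the cells of the bone marrow library in which at least 10 unique molecular identifiers (UMIs, each counting 1 captured RNA molecule) came from 7 heavy-chain constant genes and at least 70% of them from Igha. The rule found 553 such cells among the 938 of that library, which is 59.0% (exact 95% interval 55.7 to 62.1), and among 5476 cells in all 5 libraries. The reference was the 294 cells of the same library with at least 70% Ighm. The Igha share chose the cells and is therefore only described: its median was 96.3%, 536 cells lay at 90% or above, the lowest value inside the rule was 72.7% and the highest outside it was 57.0%.

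Plasma cells with high surface CD138 that lacked Ly6g and CD11c had been sorted in 2 rounds from untreated, unimmunized male C57Bl6/N mice of 8 to 12 weeks, and 3 mice were pooled per sample. The bone marrow cells were B220- and had taken up 2NBDG, a fluorescent glucose analogue. Spleen gave 4 libraries, which combined B220+ or B220- with 2NBDG+ or 2NBDG-, and no library was repeated. IgA cells numbered 77 in the B220+2NBDG- library, 135 in B220-2NBDG-, 97 in B220+2NBDG+ and 214 in B220-2NBDG+. The labels do not say whether the libraries came from separate pools of mice, so p-values measure the spread between these libraries only.

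IgA is the antibody class of mucosal surfaces, where it is secreted as dimers held together by the joining chain, the product of Jchain. B cells switch to IgA largely in gut-associated lymphoid tissue under TGF-beta and retinoic acid, which also induces homing receptors for the gut. Ccr10 binds chemokines of mucosal epithelia, Ccr9 binds the small intestinal chemokine Ccl25, and integrin alpha4 beta7 (Itga4 with Itgb7) binds the vascular addressin of the gut. Vpreb3 encodes a relative of the surrogate light chain of B cell precursors.

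The start regions of Ccr9 and Vpreb3, which with Ccr10 were the markers named for these cells, are shown because both genes were several times higher in IgA cells. The sequences are RefSeq's, build GRCm38.p6, from 250 bases before to 50 after the start. Capitals mark matches, on either strand, to the octamer ATGCAAAT, the RUNX motif TGTGGT or the KLF motif CCACCC. The Vpreb3 window is chr10:75948050-75948349 and the Ccr9 window chr9:123766961-123767260, both on the plus strand.
Vpreb3: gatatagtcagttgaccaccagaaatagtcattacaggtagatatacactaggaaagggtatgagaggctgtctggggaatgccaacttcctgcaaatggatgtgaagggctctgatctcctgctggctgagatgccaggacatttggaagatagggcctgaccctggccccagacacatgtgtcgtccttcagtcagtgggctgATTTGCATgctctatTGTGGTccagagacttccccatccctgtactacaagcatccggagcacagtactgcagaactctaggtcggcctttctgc
Ccr9: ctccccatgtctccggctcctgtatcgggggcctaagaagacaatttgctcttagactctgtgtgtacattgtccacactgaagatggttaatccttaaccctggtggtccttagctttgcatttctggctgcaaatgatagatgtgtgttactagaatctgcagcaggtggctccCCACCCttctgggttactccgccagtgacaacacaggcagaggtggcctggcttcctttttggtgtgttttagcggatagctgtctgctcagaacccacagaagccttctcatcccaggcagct
The Vpreb3 window held the octamer, in reverse complement, and a RUNX match, while the Ccr9 window held a KLF match. Among 32851 promoter windows of the same length, 1.74% held the octamer, 16.8% the RUNX motif and 31.5% the KLF motif; by gene, where any window of 27025 genes counts, the shares were 1.97%, 18.9% and 34.0%. Of the 12 genes with the highest IgA to IgM ratio together with Ccr9 and Itgb7, 12 had a window. The octamer was in 2 of these (Vpreb3 and Fgl2), the RUNX motif in 5 and the KLF motif in 6. Of the 12 genes with the lowest ratio 8 had a window, with the octamer in 1, the RUNX motif in 3 and the KLF motif in 3. The EBF1 motif, the SMAD element and the nuclear receptor half-site were also searched for. Their shares by gene were 1.06%, 0.248% and 18.1%. The EBF1 motif and the SMAD element were in 0 of the 12 higher genes with a window and 0 of the 8 lower ones. The half-site was in 1 of the 12 (Jakmip1) and 1 of the 8 (Cldn7). A match describes letters in the window and does not show a bound site.

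The bone marrow library was sequenced to a median of 15091 UMIs per IgA cell and 16104.5 per IgM cell. Immunoglobulin genes took 62.7% of the UMIs of IgA cells and 59.6% of those of IgM cells, and were left out of every level given here, which is in CPM, the count scaled to a fixed total of the other UMIs. Bone marrow shared 0 to 2 cell barcodes with each splenic library. IgM cells carried a mean Igha count of 5.39% of that in IgA cells. The rule limited Igha in IgM cells, so this value does not measure how far free RNA in the droplets can reach. All 8 plasma cell markers were present in the IgA cells, with Sdc1 (CD138) at 587 CPM and Xbp1 at 3137 CPM. The sums were 1.62 CPM for 6 T cell markers, 1.94 for 7 neutrophil markers, 4.20 for 6 macrophage markers and 4.20 for 6 erythroid markers, against 19.1, 4.24, 2.65 and 3.71 in IgM cells. The mature B cell list summed to 26.8 CPM in IgA cells and 164 in IgM cells, led by Ms4a1 (CD20), with Pax5, Cd22 and Fcer2a at 0 in both. Of the eosinophil and mast cell list only Prg2 was found, at 1466 CPM in IgA and 2400 CPM in IgM cells, and the other 4 members were at 0. The plasmacytoid dendritic cell list, which includes Ccr9, summed to 1051 CPM in IgA and 3363 CPM in IgM cells. In IgA cells it came from Bst2, Ly6c2 (487 against 3142 CPM in IgM cells) and Ccr9 (59.8 against 12.2 CPM). Siglech and Klk1 were at 0 in IgA cells. The epithelial list summed to 151 and 299 CPM, led by Epcam, with Krt8 and Krt19 at 0 in IgA cells. The part of these lists in the results was not tested. Scrublet marked 5 IgA and 8 IgM cells as doublets.

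Jchain was the most abundant transcript outside the immunoglobulin loci and moved the scale. It took 37.5% of those UMIs in bone marrow IgA cells and 21.7% in IgM cells, a ratio of 1.73 (counting interval 1.72 to 1.73). In splenic IgA cells it took 10.7%, 17.8%, 33.0% and 36.8%, in the order of the libraries given above. The splenic IgM cells of those libraries lay at 11.6%, 24.5%, 22.2% and 25.3%, and IgA cells were higher in both 2NBDG+ libraries and lower in both 2NBDG- libraries, and the splenic difference did not pass the test (log2 0.21, SE 0.18, edgeR adjusted p = 0.584). In bone marrow the median gene lay at a log2 ratio of -0.31 between IgA and IgM cells, and at 0.07 with Jchain left out of the total. Median genes per cell were 687 in IgA and 790 in IgM cells after thinning to 2000 UMIs, and 964 and 953 when Jchain was left out before thinning.

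Light-chain calls in IgA cells were spread over many genes, while 3 genes led most IgM cells with a call. A leading light-chain variable gene (at least 3 variable UMIs, at least 60% from 1 gene) was found in 472 IgA cells, over 58 genes. Igkv1-110 led in 7.63% of them, Igkv8-27 in 7.42%, Igkv10-96 in 7.20%, Igkv6-23 in 5.30% and Igkv12-44 in 5.08%. Of the 268 IgM cells with a call, 34.0% (28.3 to 40.0) were led by Igkv5-39, 23.1% by Igkv14-126 and 10.8% by Igkv4-63. The top 3 genes thus covered 22.2% of IgA cells and 67.9% of IgM cells, and the inverse Simpson index, the number of equally common genes that would give the same evenness, was 28.0 and 5.39. This spread in IgA cells depends on the rule for a call. At 10 variable UMIs and 80% from 1 gene, 35 IgA and 28 IgM cells kept a call. The top 3 shares were then 68.6% and 71.4%, and the index was 3.66 and 4.78. The 35 IgA cells were 17 led by Iglv1 and 18 led by other genes. The median count of light-chain variable UMIs was 569 per IgA cell and 584.5 per IgM cell. Near-identical variable genes and free RNA were not separated. Cells that share a gene may or may not be 1 clone, and all come from 1 pool of 3 mice. The kappa or lambda call could use only 1 lambda constant gene, Iglc2, so it sets no upper limit on lambda cells: by it 0 of 548 IgA cells and 4 of 292 IgM cells were lambda. The lambda variable gene Iglv1 led in 17 IgA cells (3.60%) and in 6 IgM cells (2.24%). These 17 IgA cells had a median of 107 Igkc UMIs, against 6727 in the 455 IgA cells led by another gene, although 12 of the 17 were called kappa. A heavy-chain variable gene could be called in 113 IgA cells, over 42 genes, with Ighv3-6 in 9.73%, Ighv2-6 in 8.85%, Ighv10-3 in 7.08% and Ighv1-76 in 6.19%. Results that change without the IgM cells of Igkv5-39, Igkv14-126 and Igkv4-63 are given both ways.

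**Figure D1:**
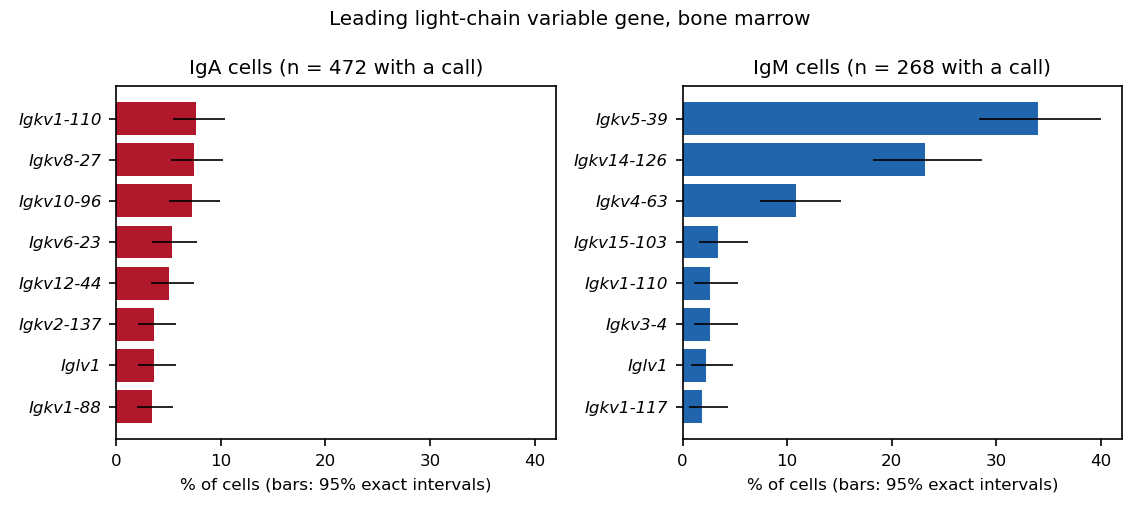
Share of cells (x axis, %) led by each of the 8 most frequent light-chain variable genes (y axis) in bone marrow IgA cells (left, 472 with a call) and IgM cells (right, 268 with a call), with exact 95% intervals. No gene exceeds 7.63% in IgA cells, while Igkv5-39 reaches 34.0% in IgM cells.

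The gut homing receptors were higher in IgA cells. Ccr10 (ENSMUSG00000044052, GRCm38 chr11:101172997-101175443) stood at 357 CPM in bone marrow IgA cells and 57.8 CPM in IgM cells, a ratio of 6.18 (5.07 to 7.59; intervals of ratios cover counting error only). In spleen its levels were 255, 444, 465 and 330 CPM in IgA cells and 14.8, 13.2, 14.1 and 16.5 CPM in IgM cells, in the order of the libraries given above. The IgA and IgM levels did not overlap, and bone marrow IgA cells lay inside the splenic IgA range while bone marrow IgM cells lay above every splenic IgM value. Across the 4 splenic libraries, whose cells the rule did not use, Ccr10 was higher in IgA cells by 4.70 on the log2 scale (SE 0.18, edgeR adjusted p = 6.87e-10, 4 of 4 libraries).

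Ccr9 (ENSMUSG00000029530, chr9:123678439-123784330) was at 59.8 CPM in bone marrow IgA cells and 12.2 in IgM cells, a ratio of 4.90 (3.17 to 7.93). Its splenic levels were 41.7, 34.3, 8.20 and 43.5 CPM in IgA cells and 0.538, 1.92, 0.455 and 4.94 CPM in IgM cells, in the same order. No splenic library reached the bone marrow level, and within spleen the classes did not overlap (log2 4.13, SE 0.39, adjusted p = 8.83e-06). Itgb7 was at 105 CPM in bone marrow IgA cells and 30.7 in IgM cells, a ratio of 3.43 (2.58 to 4.61). Here bone marrow was the lowest of the IgA levels, since spleen gave 596, 576, 215 and 137 CPM, against 25.3, 17.5, 31.4 and 21.4 CPM in IgM cells (log2 3.92, SE 0.28, edgeR adjusted p = 7.83e-07). The nearest of them, 137 CPM, was in B220-2NBDG+, the gate of the bone marrow cells. Its counting interval (115 to 162) overlapped that of bone marrow (94.2 to 117). Itga4, the partner of Itgb7, stood at 50.1 and 33.9 CPM in bone marrow, a ratio of 1.48 (1.10 to 2.01) that fell short of the 2-fold rule. It was higher in splenic IgA cells by 1.07 (SE 0.18, edgeR adjusted p = 0.00138).

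Vpreb3 (ENSMUSG00000000903, chr10:75943057-75949657) was at 299 CPM in bone marrow IgA cells and 30.2 in IgM cells, a ratio of 9.90 (7.58 to 13.2). Its splenic levels were 157, 209, 273 and 325 CPM in IgA cells and 32.0, 64.2, 28.6 and 36.7 CPM in IgM cells (log2 2.65, SE 0.25, adjusted p = 7.10e-06, 4 of 4 libraries). It was the only gene of a 7-gene precursor B cell receptor list with a mean of 10 CPM or more over both classes. Vpreb1 and Igll1 had some UMIs in bone marrow IgA cells, and Rag1 and Dntt were at 0. Ebf1, a transcription factor of early B cell development, was at 67.5 against 15.4 CPM in bone marrow and passed in spleen (log2 1.27, SE 0.25, adjusted p = 0.0037). That splenic call was lost in 2 of 9 alternatives, with adjusted p up to 0.0812.

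**Figure D2:**
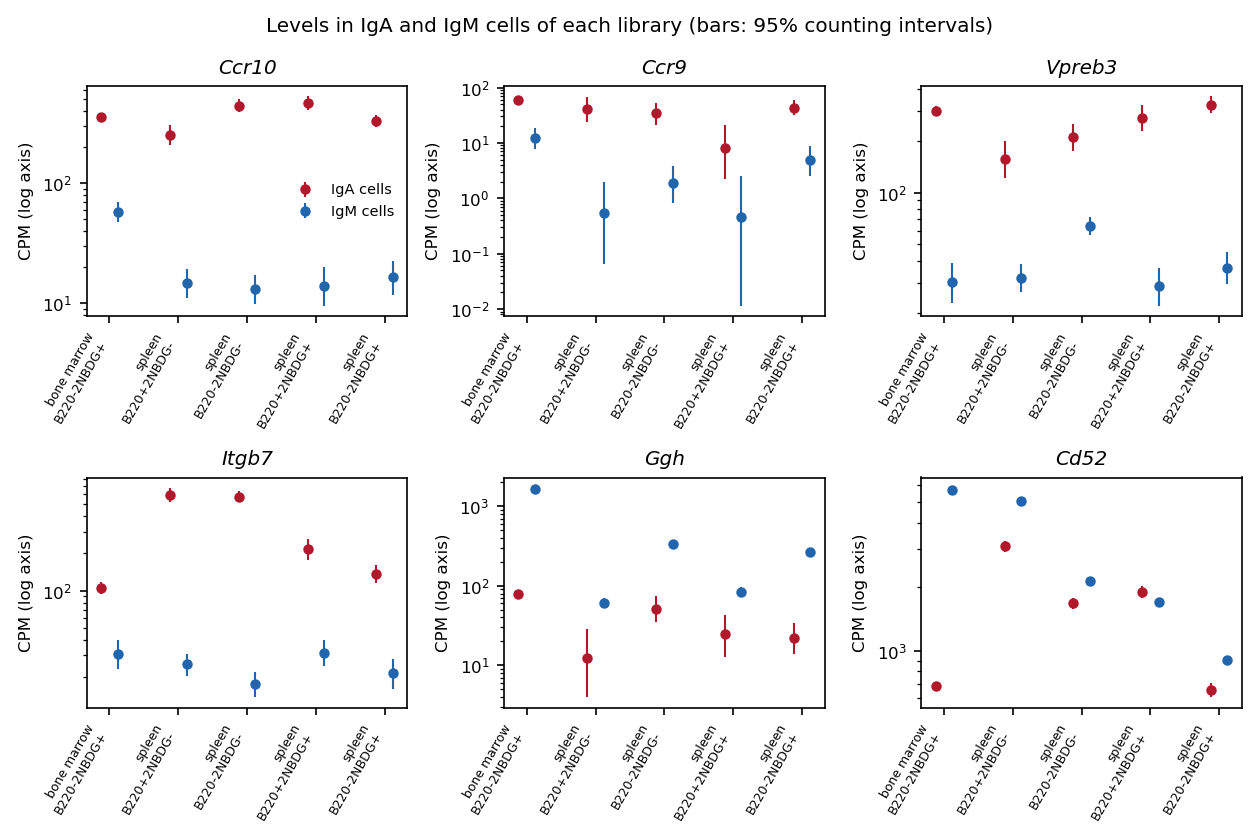
Levels of 6 genes in CPM of non-immunoglobulin UMIs (log y axis) in IgA (red) and IgM (blue) cells of the bone marrow library and the 4 splenic libraries (x axis), with exact 95% counting intervals. Ccr10, Ccr9, Vpreb3 and Itgb7 lie higher in IgA cells of each library and Ggh lower, while Cd52 stands at 684 against 5705 CPM in bone marrow and closer together in the splenic libraries.

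Single cells showed the same genes at partial detection. With every cell thinned to 2000 non-immunoglobulin UMIs (539 IgA and 287 IgM cells kept, 14 and 7 left out), Ccr10 had a UMI in 44.3% of IgA cells (40.1 to 48.6) and 14.3% of IgM cells (10.5 to 18.9). Vpreb3 was found in 39.5% and 6.62%, and Ccr9 in 9.09% (6.80 to 11.8) and 1.05% (0.216 to 3.02). Without thinning the shares were 68.5% and 26.9% for Ccr10, 65.5% and 15.3% for Vpreb3, and 22.6% and 6.46% for Ccr9. At least 1 of the 3 genes was seen in 484 of 553 IgA cells (87.5%) and 123 of 294 IgM cells (41.8%). IgM cells carried a mean count of 18.6% of the IgA level for Ccr10, 23.4% for Ccr9 and 11.6% for Vpreb3. The 5.39% for Igha gives no measure for these genes, since the rule limited Igha in IgM cells. The part of free RNA was not tested. At 2000 UMIs, Vpreb3 was found in 43.1% of the IgA cells with Ccr10 and 36.7% of those without. Ccr9 was found in 6.28% of the thinned IgA cells with Ccr10 and 11.3% of those without, and unthinned in 23.7% and 20.1%, so no order can be read from these shares.

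Over all genes, 3412 reached 25 CPM and 50 UMIs in the higher class, and 62 of them (1.82%) were at least 2-fold higher in IgA cells while 254 (7.44%) were at least 2-fold lower, together 9.26%. There is 1 library, so these are ratios without a replicate check. The split depends on the scale. With Jchain left out of the total it was 161 higher and 147 lower of 4011 genes tested. With TMM factors it was 117 and 143 of 3443, and with all UMIs as the total 22 and 148 of 1678. The count of lower genes also changed with the reference. Without the IgM cells of Igkv5-39 it was 159 of 2684 genes tested, and without those of all 3 leading kappa genes 95 of 1924. The count of higher genes was then 51 and 57. Fewer genes reached the minimums with fewer IgM cells, so these counts do not separate the reference from the number of genes tested.

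**Figure D3:**
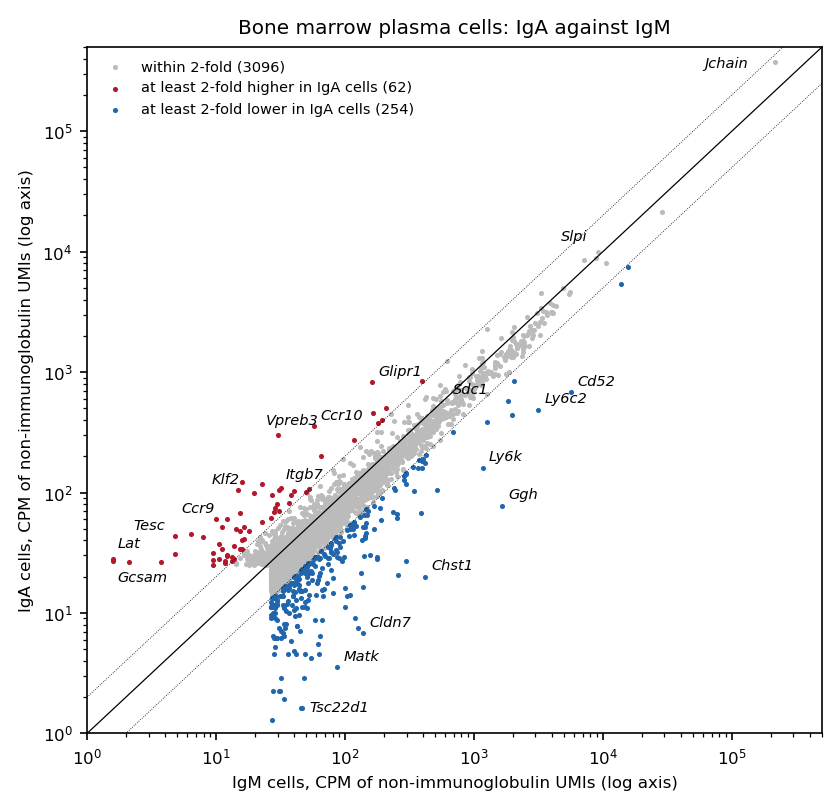
Level of each of the 3412 genes in bone marrow IgM cells (x axis) and IgA cells (y axis), in CPM of non-immunoglobulin UMIs on log axes, with 62 genes at least 2-fold higher (red) and 254 at least 2-fold lower (blue) in IgA cells. The solid line is equality and the dotted lines are 2-fold, and the cloud lies slightly under equality, by the median log2 ratio of -0.31.

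The 12 genes with the highest ratio included immune signalling adaptors. Lat, the linker of antigen receptor signalling in T cells, was at 28.1 against 1.59 CPM (87 and 3 UMIs, ratio 17.7, 5.85 to 87.4), and Gcsam, an adaptor of germinal centre B cells, at 26.8 against 1.59 CPM (ratio 16.9, 5.57 to 83.4). These ratios rest on 3 UMIs in IgM cells. The T cell list stayed at 1.62 CPM in the IgA cells, with Cd3d, Cd3e, Trac and Trbc2 at 0. Lat lay at 0, 5.15, 6.15 and 19.2 CPM in splenic IgA cells and at 1.61, 3.36, 1.36 and 1.65 CPM in IgM cells, higher in IgA cells of 3 of 4 libraries and listed at 0 in the B220+2NBDG- library. Splenic IgA cells held Gcsam at 4.91, 6.86, 14.3 and 12.2 CPM, against 0.269, 0, 0 and 0.824 CPM in IgM cells. Tesc, a calcium-binding protein, had a ratio of 9.08 (4.64 to 20.3) and was likewise higher in IgA cells of 4 of 4 splenic libraries, at 2.45 to 43.5 CPM. Neither gene passed the count filter of the splenic test. The protein kinase A inhibitor Pkib had a ratio of 12.5 and B3gnt8, a glycosyltransferase, 7.06. Cst6, a cysteine protease inhibitor, stood at 106 against 14.8 CPM and passed in spleen (log2 1.21, SE 0.25, adjusted p = 0.006). So did the non-coding Gm19585 (121 against 15.9 CPM; splenic log2 1.71, SE 0.18, adjusted p = 2.31e-05) and Jakmip1 (60.7 against 10.1 CPM; splenic log2 1.15, SE 0.18, adjusted p = 0.000884). Fgl2 at 26.5 against 3.71 CPM did not pass in spleen (adjusted p = 0.239). Gpnmb, a membrane glycoprotein, stood at 31.0 against 4.77 CPM and passed in spleen with an adjusted p of 0.0398.

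The 12 genes with the lowest ratio were led by Nox1, an NADPH oxidase, at 1.62 CPM in IgA cells against 46.1 in IgM cells (28.5-fold lower, 11.8 to 90.1), Tsc22d1 (28.2-fold) and the tyrosine kinase Matk (24.5-fold). For these 3 the IgM cells of spleen were also low, at no more than 10.3 CPM, and in bone marrow Matk was at 195 CPM in the Igkv5-39 IgM cells against 32.3 CPM in IgM cells led by none of the 3 kappa genes. Ggh, which trims folate polyglutamates, was at 77.9 against 1641 CPM, 21.1-fold lower (18.5 to 24.1). Its splenic levels were 12.3, 51.5, 24.6 and 22.3 CPM in IgA cells and 61.1, 332, 83.6 and 264 CPM in IgM cells, lower in 4 of 4 libraries (log2 -2.72, SE 0.23, adjusted p = 2.78e-06). Among IgM cells of bone marrow Ggh ran from 176 CPM (Igkv4-63) to 2368 CPM (Igkv5-39), above the IgA level in each group. The sulfotransferase gene Chst1 was at 20.03 against 415 CPM in bone marrow and fell in splenic IgA cells too (log2 -2.91, SE 0.17, adjusted p = 5.79e-08). Spon1 (17.5-fold lower; splenic log2 -3.43, adjusted p = 2.49e-06), Gpr18, a G protein-coupled receptor (13.9-fold; -3.74, adjusted p = 1.79e-06), and Gpm6a (16.6-fold; -1.81, adjusted p = 0.00138) passed in both comparisons. Aire, Cldn7, Cpq and Il10 were 20.9-fold, 20.3-fold, 16.9-fold and 13.8-fold lower and were too low in spleen to be tested.

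The splenic libraries repeat the contrast in cells that the rule did not use. The members, gene lists and tests were chosen with earlier results of the same series known, so spleen is not an independent check. The edgeR quasi-likelihood test over 7093 genes, with the library as a block, called 311 genes higher (4.38%) and 331 lower (4.67%) in IgA cells. Of the 62 genes higher in bone marrow, 57 could be tested there and 36 were called higher (63.2%), 0 lower, and 56 lay above 0. Of the 254 lower, 240 could be tested, 132 were called lower (55.0%) and 1 higher. Read from the other side, 174 of the 311 splenic higher genes were measured in bone marrow and 36 passed the 2-fold rule there, with 1 lower, and 132 of the 270 measured splenic lower genes did so, with 0 higher. Genes with high counts in 1 comparison tend to be testable in the other, so these shares describe measured genes only.

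**Figure D4:**
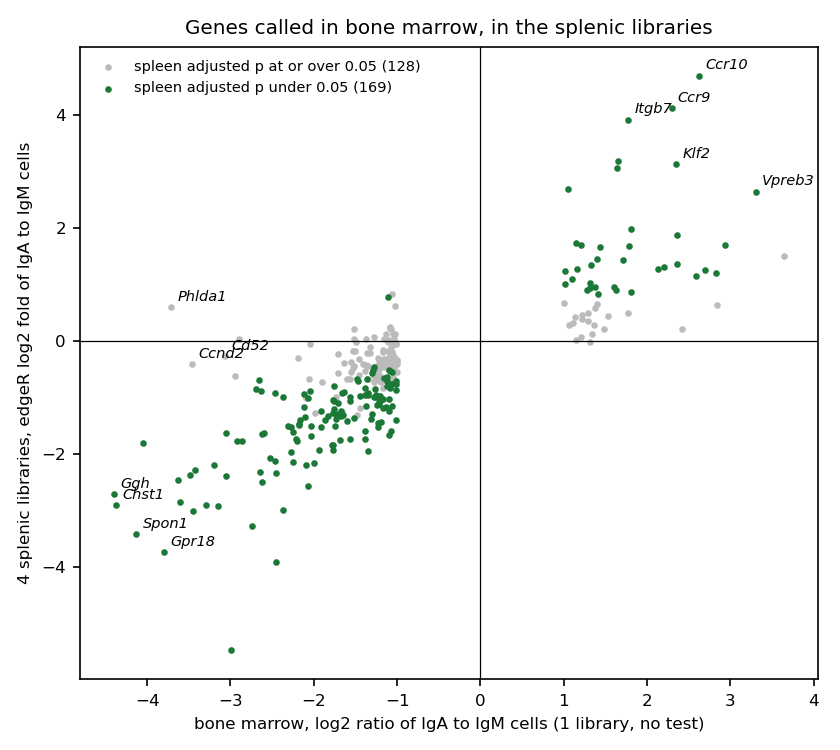
For the 297 genes called in bone marrow that were also tested in spleen, log2 ratio of IgA to IgM cells in bone marrow (x axis) and edgeR log2 fold in the 4 splenic libraries (y axis), coloured by whether the splenic adjusted p was under 0.05 (169 genes) or not (128). Ccr10, Ccr9, Itgb7, Klf2 and Vpreb3 lie high on both axes, while Cd52, Phlda1 and Ccnd2 lie low on the x axis and near 0 on the y axis.

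Whether the IgA to IgM difference was itself different in bone marrow was tested as an interaction over all 10 class sums and 7679 genes. edgeR called 0 genes higher and 3 lower (0.0391%), with 419 genes at an unadjusted p under 0.05, and DESeq2 called 0 and 3. The spread comes from the spleen, since bone marrow is 1 library, and simulated 4-fold interactions were recovered in 57 of 100 genes. Cd52, a small surface glycoprotein of lymphocytes, was at 684 CPM in bone marrow IgA cells and 5705 in IgM cells, but at 3088, 1669, 1889 and 655 CPM in splenic IgA cells and 5039, 2124, 1701 and 907 CPM in splenic IgM cells. Its difference was lower in bone marrow by -2.52 (SE 0.33, adjusted p = 0.00683) and held at -2.45 without the IgM cells of the 3 leading kappa genes. Ccnd2, cyclin D2, was at 27.1 against 299 CPM in bone marrow and at 43.5 to 172 against 79.3 to 216 CPM in spleen (-2.78, SE 0.44, adjusted p = 0.0232). Phlda1 was at 9.05 against 119 CPM in bone marrow and at 6.86 to 24.6 against 7.53 to 11.8 CPM in spleen (-4.04, SE 0.55, adjusted p = 0.00683). Without the IgM cells of the 3 kappa genes Phlda1 moved to -1.86 and lost its call, and Ccnd2 kept its size at -2.71 but lost its call as well. Phlda1 and Ccnd2 each also lost the call without the spleen B220+2NBDG- library and without the spleen B220+2NBDG+ library. In all 3 genes the bone marrow IgM level stood above every splenic IgM level, and for Cd52 and Phlda1 the bone marrow IgA level lay inside the range of splenic IgA cells. The interaction of Ccr10 was -1.81 (SE 0.35, adjusted p = 0.12), that of Itgb7 -1.88 (SE 0.60, adjusted p = 0.703), that of Ccr9 -1.57 (SE 0.61, adjusted p = 0.821) and that of Vpreb3 0.93 (SE 0.52, adjusted p = 0.944), and none passed. Ccr10 passed in 3 of its 10 alternatives and Itgb7 in 1 of 10, in which every gene with 1 UMI was kept.

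Gene lists are described relative to the median of 5524 genes of 10 CPM or more (log2 -0.29), beside the 1.82% higher and 7.44% lower of single genes. Splenic counts of list members stand beside the 4.38% higher and 4.67% lower of the 7093 genes tested there. The mucosal homing list stood highest among lists with more than 1 measured gene: 3 of its 5 measured genes were 2-fold higher (Ccr9, Ccr10, Itgb7), 0 lower, and its median was 2.07 above that of all genes. In spleen 4 of its 5 tested genes rose. Among 8 marrow and lymphoid homing genes Klf2, a transcription factor of lymphocyte traffic, was higher (99.8 against 19.6 CPM; splenic log2 3.13, SE 0.39, adjusted p = 0.000116), and the tetraspanin gene Cd9 lower (29.7 against 69.4 CPM). Splenic IgA cells held Klf2 at 1391, 796, 215 and 120 CPM, all above the bone marrow IgA level. Cxcr4, the receptor that retains plasma cells in marrow, was barely measured, with 1.94 against 12.7 CPM (6 and 24 UMIs), and fell in splenic IgA cells by 1.5 on the log2 scale (SE 0.45, adjusted p = 0.0482). None of 6 measured genes of TGF-beta and retinoic acid signalling passed the 2-fold rule in bone marrow, while in spleen 3 of 11 tested members rose (Tgfbr1, Smad4 and Runx2) and 0 fell. Runx2, which with Runx3 acts in switching to IgA, missed the 25 CPM minimum, at 22.3 against 3.18 CPM (69 and 6 UMIs, ratio 7.01, 3.06 to 19.8). In splenic IgA cells it lay at 14.7, 25.7, 32.8 and 24.3 CPM, against 0.807, 2.16, 1.36 and 1.24 CPM in IgM cells (log2 4.07, SE 0.37, adjusted p = 6.79e-06). Runx3 stood at 18.4 against 12.2 CPM and did not pass in spleen (adjusted p = 0.818).

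Of 12 measured B cell identity genes 5 were lower (Ms4a1, Cd52, Fcrla, Cd83, Tnfrsf13c) and 1 higher (Ebf1), and the list median lay 0.60 under that of all genes. Cd79a, a subunit of the B cell receptor, stood at 2265 against 1253 CPM (log2 0.85) and was not called. Ms4a1 was at 16.5 against 137 CPM and Cd83 at 7.43 against 34.4 CPM, and in spleen 6 of 14 tested members fell, with Ms4a1 at -1.63 (SE 0.31, adjusted p = 0.0035). Of 7 MHC class II genes 2 were lower, H2-Aa and the invariant chain Cd74 (7446 against 15579 CPM; splenic log2 -0.76, SE 0.13, adjusted p = 0.00163). With Jchain left out of the total both lost the call, H2-Aa moving to -0.68 and Cd74 from -1.07 to -0.74, as did Cd9, Fcrla, Sel1l, Pfkp and Ddit3, which also lost it with TMM factors. Of 20 plasma cell identity genes 0 were higher and 2 lower, Irf4 (63.0 against 130 CPM) and Pou2af1 (206 against 425 CPM), and neither passed in spleen. Both calls were lost with Jchain left out of the total (log2 -0.72 each, from -1.04) and with TMM factors (-0.75 each). Prdm1, which encodes Blimp-1, lay at 42 against 54.1 CPM. Tnfrsf17 (BCMA), a survival receptor, was level in bone marrow at 487 against 475 CPM but higher in splenic IgA cells (log2 1.20, SE 0.21, adjusted p = 0.00164), a difference between tissues that did not pass (adjusted p = 0.903). Of 6 inhibitory and Fc receptor genes Lag3 (8.72 against 58.3 CPM; splenic log2 -3.27, SE 0.30, adjusted p = 6.79e-06) and Fcer1g (17.8 against 60.4 CPM) were lower.

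Of 25 unfolded protein response genes 1 was lower (Sel1l) and 0 higher, and the median differed from that of all genes by -0.002. Glycolysis (12 genes, 1 lower), the integrated stress response (15 genes, 1 lower), the immediate early genes (14 genes, none called) and metallothionein and redox genes (11 genes, none called) had medians 0.11 or less from that of all genes. The 12 mitochondrially encoded genes all lay above that median, by 0.27 at the list median, with 0 called, and the 4 measured cell cycle genes lay 0.42 above it with 0 called. In the 20 glycosylation genes the sialyltransferase gene St6gal1 was higher (272 against 117 CPM, ratio 2.33, 2.01 to 2.72) and the oligosaccharyltransferase subunit gene Stt3b lower (61.1 against 251 CPM). Stt3b also fell in splenic IgA cells (log2 -0.89, SE 0.19, adjusted p = 0.00656) and St6gal1 did not pass there (adjusted p = 0.13). Of 10 interferon-induced genes only Bst2 was higher, at 503 against 208 CPM, and it rose in splenic IgA cells (log2 0.91, SE 0.16, adjusted p = 0.00163). In spleen 7 of 14 immediate early genes and 6 of 17 stress response genes fell in IgA cells, beside 4.67% of all genes tested there. Of these lists 0 immediate early genes and 1 stress response gene, Wars, rose. In bone marrow the stress response gene Slc3a2, an amino acid transporter subunit, stood at 993 against 1855 CPM, and in spleen it fell by 1.72 (SE 0.14, adjusted p = 2.36e-06).

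**Figure D5:**
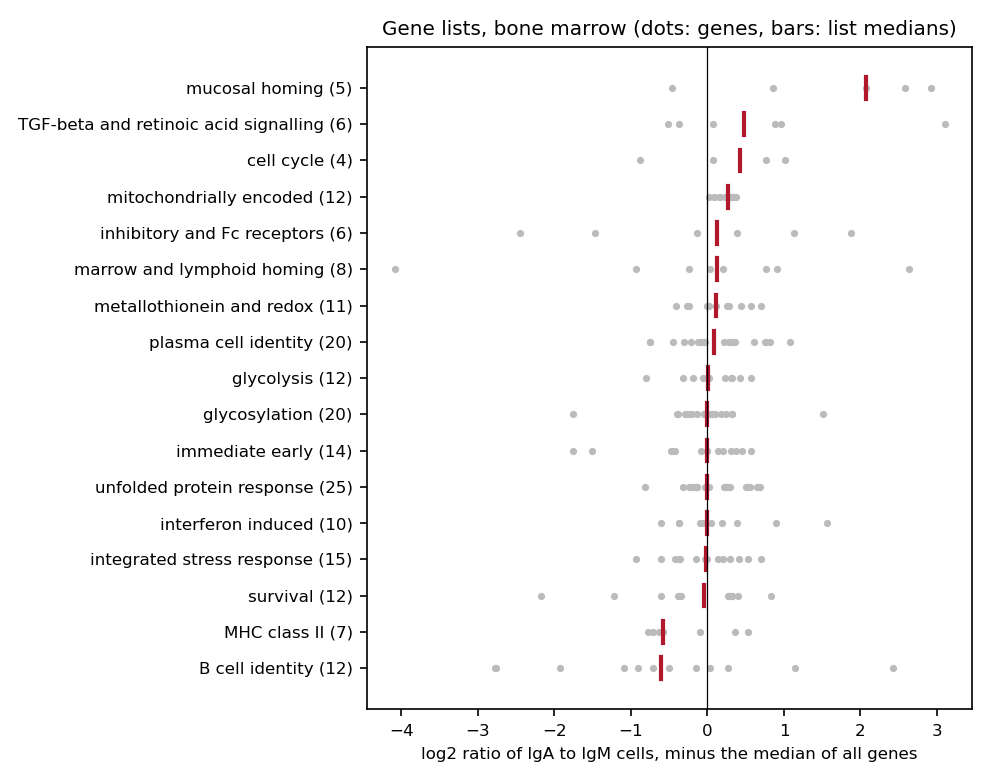
Log2 ratio of IgA to IgM cells in bone marrow, minus the median of all genes (x axis), for the measured genes (dots) of each list with at least 4 of them (y axis, number of genes in brackets), with the list median as a bar. Mucosal homing stands at 2.07 and B cell identity at -0.60, and the spread of genes within a list is wider than the distance of most medians from 0.

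Within the IgA cells the receptors varied between light-chain groups. Over 10 groups of at least 16 cells sharing a leading variable gene, Ccr10 ran from 125 CPM (Igkv1-88, 14 UMIs in 16 cells) to 456 CPM (Igkv12-44, 62 UMIs in 24 cells), and each group was above the 57.8 CPM of IgM cells. Ccr9 ran from 11.0 CPM (Iglv1, 1 UMI) to 116 CPM (Igkv1-88, 13 UMIs). The Iglv1 and Igkv2-137 groups (11.1 CPM and 1 UMI in the latter) lay under the 12.2 CPM of IgM cells. Igkv1-88, the group lowest in Ccr10, was the highest in Ccr9, on 14 and 13 UMIs. Vpreb3 ran from 210 to 383 CPM and Klf2 from 29.4 CPM (4 UMIs) to 387 CPM (Igkv2-137, 35 UMIs). The groups were formed from immunoglobulin UMIs of the same cells and are described without a test. Jchain ran from 365984 to 417093 CPM. Per cell, Jchain had quartiles of 325293 and 434783 CPM in IgA cells and 182266 and 283004 CPM in IgM cells, which did not overlap.

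Over the 10 class sums of the 5 libraries, the gene most like Ccr10 among 3473 genes was Vpreb3 (Pearson's r = 0.92 of log2 CPM + 10), followed by Glipr1, Gimap1, Jpt1 and Mllt3 (0.89 to 0.90). The sums share their libraries in pairs and fall into IgA and IgM, so this r is a description. Glipr1 was at 828 against 161 CPM in bone marrow (ratio 5.14, 4.56 to 5.80) and higher in splenic IgA cells (log2 1.88, SE 0.15, adjusted p = 2.59e-06).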

How the data were processed

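Single-cell libraries were made with a droplet kit that counts 3' ends with UMIs, per the labels' protocols. The submitters' processing notes name Cell Ranger 2.1 and GRCm38; for the annotation and the barcode filter, a setting is not given in the sources used here. The deposited files hold raw UMI counts per gene and cell, 1 file for each of 5 libraries, and all deposited barcodes were used. Gene positions are from GENCODE vM21.

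The members, gene lists and tests were chosen with earlier results of these data known. UMIs were summed per library over IgA and IgM cells, without immunoglobulin genes. In bone marrow, ratios of CPM with exact conditional 95% intervals were called at 25 CPM and 50 UMIs in the higher class and 2-fold, with counts raised to at least 3 UMIs. Spleen (8 sums) and the interaction (10 sums) were tested with edgeR 4.0.16 in R 4.3.3 (quasi-likelihood, TMM, filterByExpr, library as block, Benjamini-Hochberg at 0.05), and DESeq2 1.42.0 was an alternative. Each library gives both classes, so the block pairs them by construction. SEs are derived from the F statistic. Named genes were the 12 highest and 12 lowest ratios, the interaction calls, a fixed set and list members. Doublets were marked with Scrublet in scanpy 1.11.5 and kept. On simulated counts, 4-fold changes were recovered in 99 of 100 genes by the bone marrow ratio rule over 3411 genes and in 96 of 100 by the splenic test over 7093 genes, and 2-fold changes in 51 and 68 of 100. The simulated bone marrow counts held counting error only, without variation between cells, clones or mice. A true 2-fold change lies at the threshold of the bone marrow rule itself. Lambda was called from Iglc2 alone, since Iglc1 and Iglc3 were not analysed here. Depth limits single genes: intervals cover counting error only.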

Additional observations from a re-analysis of the deposited data

Results flagged for a closer look

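The IgA to IgM difference was lower in bone marrow than in spleen for 3 genes, by the interaction test over 10 class sums: Cd52 at -2.52, Phlda1 at -4.04 and Ccnd2 at -2.78 on the log2 scale (edgeR adjusted p = 0.00683, 0.00683 and 0.0232). Phlda1 was at -1.86 without the bone marrow IgM cells of the 3 leading kappa genes, while Cd52 was at -2.45. Among bone marrow IgM cells Cd52 ran from 1097 CPM (Igkv4-63, 29 cells) to 8117 CPM (Igkv5-39, 91 cells), and among IgA groups from 486 to 769 CPM.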

How the results depend on the processing

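In bone marrow, 62 genes were higher and 254 lower. The counts became 22 and 148 with all UMIs as the total (fewer genes tested). They were 161 and 147 without Jchain in the total (more genes tested) and 117 and 143 with TMM factors. With cells thinned to 2000 UMIs they were 36 and 90 (fewer genes tested). Minimums of 10 CPM and 20 UMIs gave 158 and 531 (more genes tested). Chosen after seeing the data, an IgM reference without Igkv5-39 cells gave 159 lower of 2684 genes tested. One without the 3 leading kappa genes gave 95 lower of 1924. Thinned to 1000 UMIs, Ccr10 was found in 25.3% of IgA and 5.46% of IgM cells, Ccr9 in 6.69% of IgA cells and Vpreb3 in 22.8% and 2.73%. With 10 variable UMIs and 80%, only 35 IgA cells had a light-chain call, and Iglv1 led 48.6% of them. In spleen the 311 higher and 331 lower became 199 and 180 with DESeq2, 99 and 90 with no replicate block, and 595 lower with every gene of 1 UMI. Leaving out 1 splenic library gave 165 to 321 higher and 189 to 304 lower, the lowest counts without B220+2NBDG-. The interaction's 0 higher and 3 lower became 36 and 27 with every gene of 1 UMI, 0 lower with no replicate block and 1 lower without the 3 leading kappa genes. Leaving out 1 splenic library gave 0 to 6 higher and 1 to 19 lower, with most calls without B220-2NBDG+. Apart from the splits by scale, the cause was not tested. No gene past its threshold changed direction in the alternatives run. Of the list medians recomputed, 35 changed sign and 253 did not. Genes under 25 CPM and differences under 2-fold were not called by the main bone marrow rule. The interaction test has little reach at 2-fold: simulated 2-fold interactions were recovered in 11 of 100 genes.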
